A study of Mus musculus with 44 samples.

Results

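Among the liver transcripts that carried an N6-methyladenosine (m6A) peak after PCB126 but not in vehicle controls, the 8 described here, Pde4b, Arhgap29, Ccnt2, Fem1a, Ctso, Tmem28, Cic and Wac, had some of the highest enrichments. They were chosen from the peak lists themselves. A locus was called gained with PCB126 when the PCB126 list held a peak there and the control list held none, both against input and against IgG. Of 1420 loci with a peak in any list, 214 were gained. Among these 214, the 8 genes had a highest fold enrichment over input after PCB126 of at least 15.9. Egfr was the only other gained locus above that value. Their height after PCB126 and their absence from the control lists are therefore a description and not a finding.

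Livers came from male C57Bl/6J mice, all on a high-fat diet (42% of energy) and given a single oral exposure at week 2 of a 12-week study. The groups were Aroclor1260 plus PCB126 (the combination), PCB126 alone, Aroclor1260 alone and vehicle control. Each group had 5 m6A immunoprecipitates (m6A), 5 input libraries and 1 library of pooled RNA precipitated with IgG. Aroclor1260 is a mixture of many chlorinated biphenyls that was sold commercially, and PCB126 is one congener, a ligand of the aryl hydrocarbon receptor with dioxin-like action. Doses are not stated in the labels.

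Background on the mark helps to read the values. m6A is set on adenosines of nascent messenger RNA by a nuclear methyltransferase complex, removed by demethylases and read by YTH-domain proteins that act on splicing, export, translation and decay. It is commonly dense near stop codons and in long internal exons. In MeRIP, fragmented RNA is precipitated with an antibody against m6A, and a peak is a stretch where the precipitate is enriched over a reference library; fold enrichment is that linear ratio, as the authors' peak caller gave it for each peak.

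Each list was called for a whole group, so there is 1 value per group and reference, no spread between mice, and no test across animals. The lists against input held 2284 peaks in the combination, 2178 after PCB126, 506 after Aroclor1260 and 620 in the control. Against IgG they held 3683, 4129, 2082 and 2091 peaks in that order. Depth is unknown, and the lists differ in length. The plus strand held 95.2% of the 17573 peaks, those of the 8 genes included. Hepatocyte markers had peaks in every list (6, 3, 1 and 3 of 10 against input and 5, 5, 4 and 4 against IgG, in the same order). Markers of sinusoidal endothelium, stellate cells, macrophages and cholangiocytes had none in any list. Of the endothelial and macrophage markers with a known strand, none is on the plus strand. Of the stellate cell markers 2 of 4 with a known strand are, and of the cholangiocyte markers 2 of 2. In whole-liver RNA, more cells of a type and more RNA per cell cannot be told apart, and transcript levels were not analysed here.

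The 8 proteins have different roles. Pde4b encodes a phosphodiesterase that degrades cyclic AMP. Arhgap29 encodes a GTPase-activating protein that works downstream of Rap1. Ccnt2 encodes cyclin T2, a subunit of the transcription elongation kinase P-TEFb. Fem1a encodes a substrate receptor of CUL2 ubiquitin ligases. Ctso encodes cathepsin O, a cysteine protease. Tmem28, also called Fam155b, encodes a membrane protein related to FAM155A, which in human cells is a subunit of the sodium leak channel NALCN. Cic encodes Capicua, a repressor that receptor tyrosine kinase signalling relieves, and Wac encodes an adaptor that in human cells links the RNF20 and RNF40 ubiquitin ligase to RNA polymerase II.

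The aryl hydrocarbon receptor binds DNA at sites with the core GCGTG, so the 250 bases before each RefSeq start site (GRCm38.p6) were searched for it on both strands (GCGTG or CACGC). Of the 8 genes, 7 had an entry. Arhgap29 had 4 matches before the first of its 2 entered start sites, Ccnt2 3, Tmem28 2 and Ctso 1. Pde4b had 1 before the first of its 4 entered start sites. The first entry need not be where the gene span begins. The span of Arhgap29 begins at 121953113, inside its window. Its 3 GCGTG matches lie within that span, and its 1 CACGC match lies before it. The span of Pde4b begins at 102087332, upstream of all 4 windows. Fem1a and Cic had none in this window. At least 1 match was thus found at 5 of 7 genes. The core is short and common: 30.9% of 27025 genes had it in at least 1 promoter of this length, as did 50.1% of 1029 genes with a peak in any list and 55.2% of 154 genes gained with PCB126. Counted by promoter, the share was 28.2% of all 32851, 43.9% of 1336 at loci with a peak in any list and 47.3% of 201 at loci gained with PCB126. The 3 promoters with the most matches are shown on the plus strand, with the matches in capitals, at chr3:121952979-121953228 for Arhgap29, chr1:127773914-127774163 for Ccnt2 and chrX:99819914-99820163 for Tmem28.
Arhgap29: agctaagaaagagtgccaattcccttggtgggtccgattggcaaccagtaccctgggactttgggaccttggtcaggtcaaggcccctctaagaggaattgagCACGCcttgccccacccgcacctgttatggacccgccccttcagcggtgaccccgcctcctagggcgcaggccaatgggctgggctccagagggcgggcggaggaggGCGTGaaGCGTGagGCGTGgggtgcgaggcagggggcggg
Ccnt2: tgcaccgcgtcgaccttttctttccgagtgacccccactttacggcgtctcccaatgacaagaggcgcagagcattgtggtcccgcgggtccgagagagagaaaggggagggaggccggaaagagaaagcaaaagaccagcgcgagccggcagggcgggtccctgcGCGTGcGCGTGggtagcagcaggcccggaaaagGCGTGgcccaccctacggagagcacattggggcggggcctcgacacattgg
Tmem28: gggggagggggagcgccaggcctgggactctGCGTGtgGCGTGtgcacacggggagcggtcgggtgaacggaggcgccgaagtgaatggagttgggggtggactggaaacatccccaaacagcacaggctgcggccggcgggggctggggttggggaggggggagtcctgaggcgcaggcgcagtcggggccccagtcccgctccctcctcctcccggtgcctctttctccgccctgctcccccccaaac
A match describes these letters and is not a binding site.

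The first question was what the 8 genes carried after PCB126. They held 23 peaks against input and 30 against IgG in that list, and the plot of the highest fold by treatment gives every value. None of the 8 had a control peak with either reference, and none had an Aroclor1260 peak against input. By the rule for gain, 49.9% of the 903 loci with a peak in any input-referenced list were gained against input and 15.1% of the 1420 loci against both references; all 8 genes belong to both sets by choice.

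**Figure D1:**
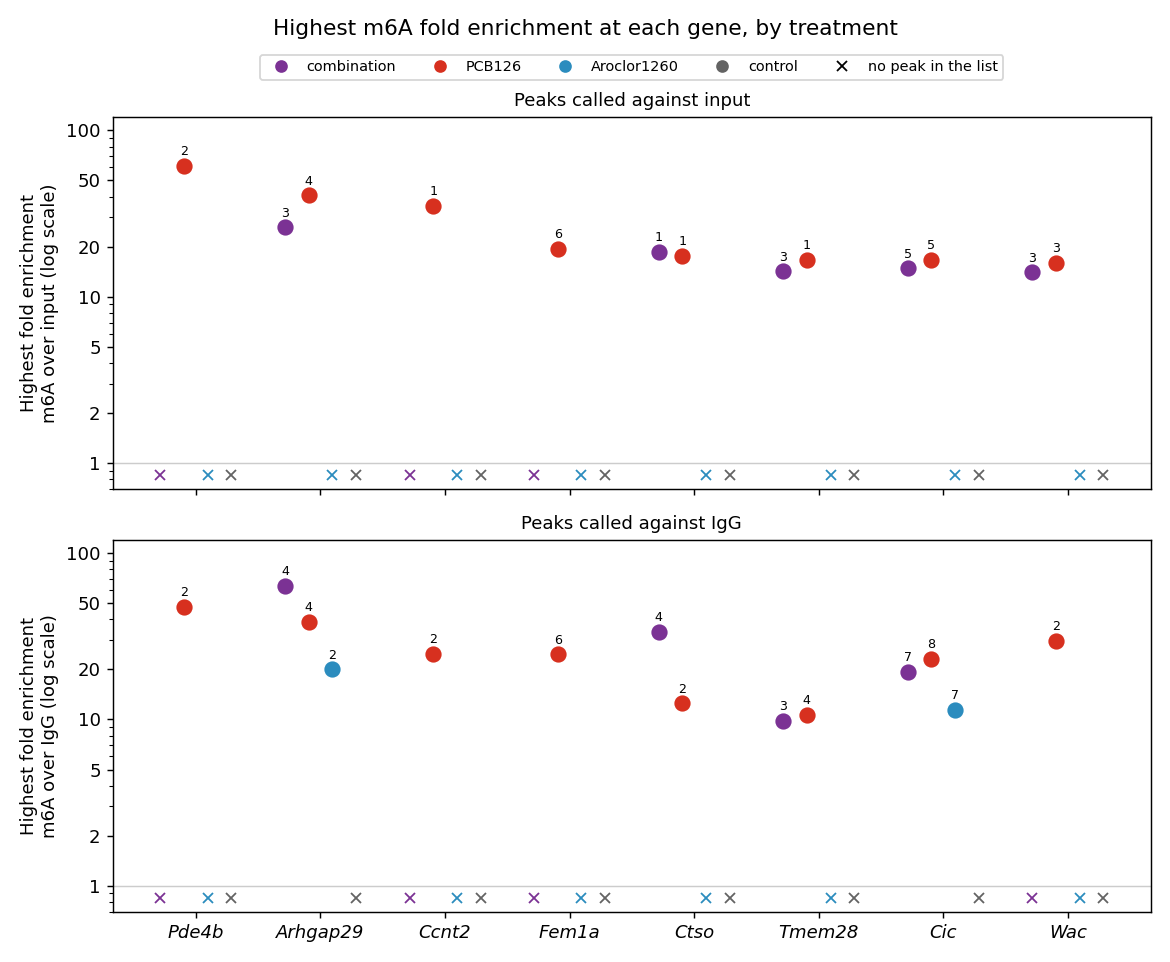
Highest fold enrichment (log axis) of the peaks at each of the 8 genes, against input (top) and against IgG (bottom), in the combination, PCB126, Aroclor1260 and control lists; each point is the single value of a whole group, the number beside it counts the peaks, and a cross marks a gene without a peak. All 8 genes have a PCB126 point with both references, the control has none, and Pde4b, Ccnt2 and Fem1a have a point after PCB126 alone.

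Pde4b, Ccnt2 and Fem1a carried peaks in both PCB126 lists and in none of the other 6. Pde4b had 0 peaks in the combination and 2 after PCB126, and the stronger of these was the most enriched of all 2178 peaks. It lay on chromosome 4 from 102605018 to 102605815, with a fold enrichment of 61.2 over input and 47.6 over IgG and authors' false discovery rates of 1.12e-06 and 7.24e-07. It ended 1460 bp before the end of a gene of 519944 bp. A second Pde4b peak, from 102601614 to 102602788 in 3 exonic blocks, had folds of only 2.37 and 4.20, so the main peak stood 25.8 times above it against input. Neither was matched in the combination, Aroclor1260 or control lists.

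Ccnt2 likewise had 0 combination peaks. After PCB126 it had a single broad peak of 1650 bp against input, on chromosome 1 from 127802214 to 127803863, with a fold of 35.2 and a false discovery rate of 3.24e-07. The IgG call gave the same span to the base, with a fold of 24.8, and added a peak of fold 2.00 across an exon junction upstream. The broad peak ended 974 bp before the gene's end. In width it exceeded 98.6% of the peaks in its list.

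Fem1a was the last gene without a combination peak. It had 6 peaks against input and 6 against IgG. The strongest, on chromosome 17 from 56259330 to 56259628, had folds of 19.5 over input and 24.6 over IgG. The others ranged from 2.14 to 4.30 against input. Joined over the lists, they made 7 sites, 5 of them found with both references. All 6 input-referenced peaks and 5 of the 6 IgG-referenced ones had a false discovery rate listed as 0, which 113 of the 2178 PCB126 peaks had against input. Fem1a was also the only member with a peak among the 506 PCB126 peaks of smallest p-value; the other 7 genes had none there.

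Absence from the combination was set against the background. Of the 214 loci gained with PCB126 against both references, 28.5% had no combination peak with either reference (Wilson 95% interval 22.9 to 34.9%), as did 3 of the 8 genes. A peak after PCB126 with both references and in no other list was found at 26.6% of the 214 and at the same 3 genes. Another 54 loci had that pattern. By PCB126 fold over input they included Rb1cc1, which takes part in starting autophagy, with 9.80, Naa30 with 7.46, Ankle2 with 7.33 and the histone methyltransferase gene Kmt5b with 6.07.

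The other 5 genes kept a peak in the combination against input. Of the 451 loci gained against input, 64.5% did so (60 to 68.8%), and of the 214 gained against both references, 50.9%. Against IgG 4 of the 8 genes had a combination peak, where 65.4% of the 214 loci did, and the same 4 had one against both references, where 44.9% (38.3 to 51.6%) did. Of the 569 loci gained against IgG, 51.0% had a combination peak against IgG. The members' counts lie near these shares, except that 4 of 8 is below the 65.4% of the 214 loci against IgG. It is near the 51.0% of the 569 loci, and with 8 genes neither reading is firm. The 214 loci were also divided by PCB126 fold into sets of 71, 71 and 72. The share kept against both references was 57.7% (46.2 to 68.5%) in the highest set, which holds all 8 genes, 42.3% (31.5 to 53.8%) in the middle one and 34.7% (24.8 to 46.2%) in the lowest.

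Arhgap29 had its main peak in 5 lists. In 4 of them it began at the same base, and in the PCB126 list against IgG it began at 122014114 and ended at 122015060. Against input the peak ran on chromosome 3 from 122012137 to 122014861, in blocks of the same positions, in the combination and after PCB126. Its fold was 26.1 in the combination and 40.7 after PCB126 against input, but 63.6 in the combination and 38.5 after PCB126 against IgG. The order of the 2 groups thus depended on the reference (log2 ratio, combination over PCB126, -0.64 and 0.72). Arhgap29 also had 2 Aroclor1260 peaks against IgG, the main one with a fold of 20, although it had none against input. Of its 5 sites, the minor one from 122008031 to 122010014 appeared after PCB126 only, with folds of 2.12 and 3.80, and that from 121993649 to 122002573 in the combination only, with 1.80 against either reference.

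Ctso had a single peak against input in each of the lists that held it. In the combination it spanned chromosome 3 from 81954288 to 81955283 with a fold of 18.7, and after PCB126 it spanned 81954239 to 81955233 with 17.7. These differ by a ratio of 1.06. Against IgG the region was split into 3 peaks in the combination and 2 after PCB126, and the highest folds were 33.6 in the combination and 12.5 after PCB126, a log2 ratio of 1.43. That ratio stood above 99.3% of those of the 140 gained loci with an IgG-referenced combination peak, while against input the ratio of Ctso stood above 65.1% of 109. Ctso had no Aroclor1260 peak with either reference.

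Tmem28 had its longest PCB126 block near the start of the gene and further blocks near its other end. The PCB126 peak against input joined 3 exonic blocks on chromosome X from 99821367 to 99846267, with the longest block, 560 bp, at the low end and a fold of 16.7. In the combination the same stretch was called as 3 separate peaks, and the strongest, from 99821417 to 99821763, had 14.2. Against IgG the highest folds were 9.80 in the combination and 10.6 after PCB126. Each of the 4 lists also had blocks far downstream, such as the PCB126 peak against IgG from 99845472 to 99846168, with a fold of 3.20. Single peaks of fold 2.00 against IgG lay farther on, from 99847355 to 99847454 in the combination and from 99848592 to 99848691 after PCB126. Among the members' strongest peaks against input, those of Tmem28 had the highest authors' false discovery rates, 0.00148 in the combination and 0.000257 after PCB126. The other 2 combination peaks were at 0.0389, so with a limit of 0.001 Tmem28 had no combination peak against input and 4 of the 8 genes kept one. Tmem28 had no Aroclor1260 peak with either reference.

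Cic had the widest peak and the most sites. After PCB126 its main peak covered 2749 bp in 1 block on chromosome 7 from 25270874 to 25273622, wider than 99.9% of the list, with a fold of 16.6 over input. In the combination the same stretch was divided into 3 peaks. The strongest of them, with a fold of 14.8, ended at the same base as the PCB126 peak. Against IgG the highest folds were 19.4 in the combination, 23.0 after PCB126 and 11.4 after Aroclor1260. Aroclor1260 had 7 Cic peaks in that list, and 4 of them fell in this stretch. The remaining 8 Cic sites were weak, with folds of at most 3.70 in any list, and the one from 25288229 to 25288479 was found in 5 lists.

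Wac was kept with 1 reference only. Its main peak joined a block of 48 bp to one of 301 bp across an exon junction on chromosome 18, from 7905997 to 7910816, and had the same borders in every list that held it. The fold over input was 14 in the combination and 15.9 after PCB126. Against IgG it was 29.8 after PCB126, and the combination had no Wac peak at all. A combination peak against input with none against IgG was found at 6.07% of the 214 gained loci. The next site, from 7916220 to 7916320, had 4.83 in the combination and 1.88 after PCB126 against input, the reverse of the order at the main peak.

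**Figure D2:**
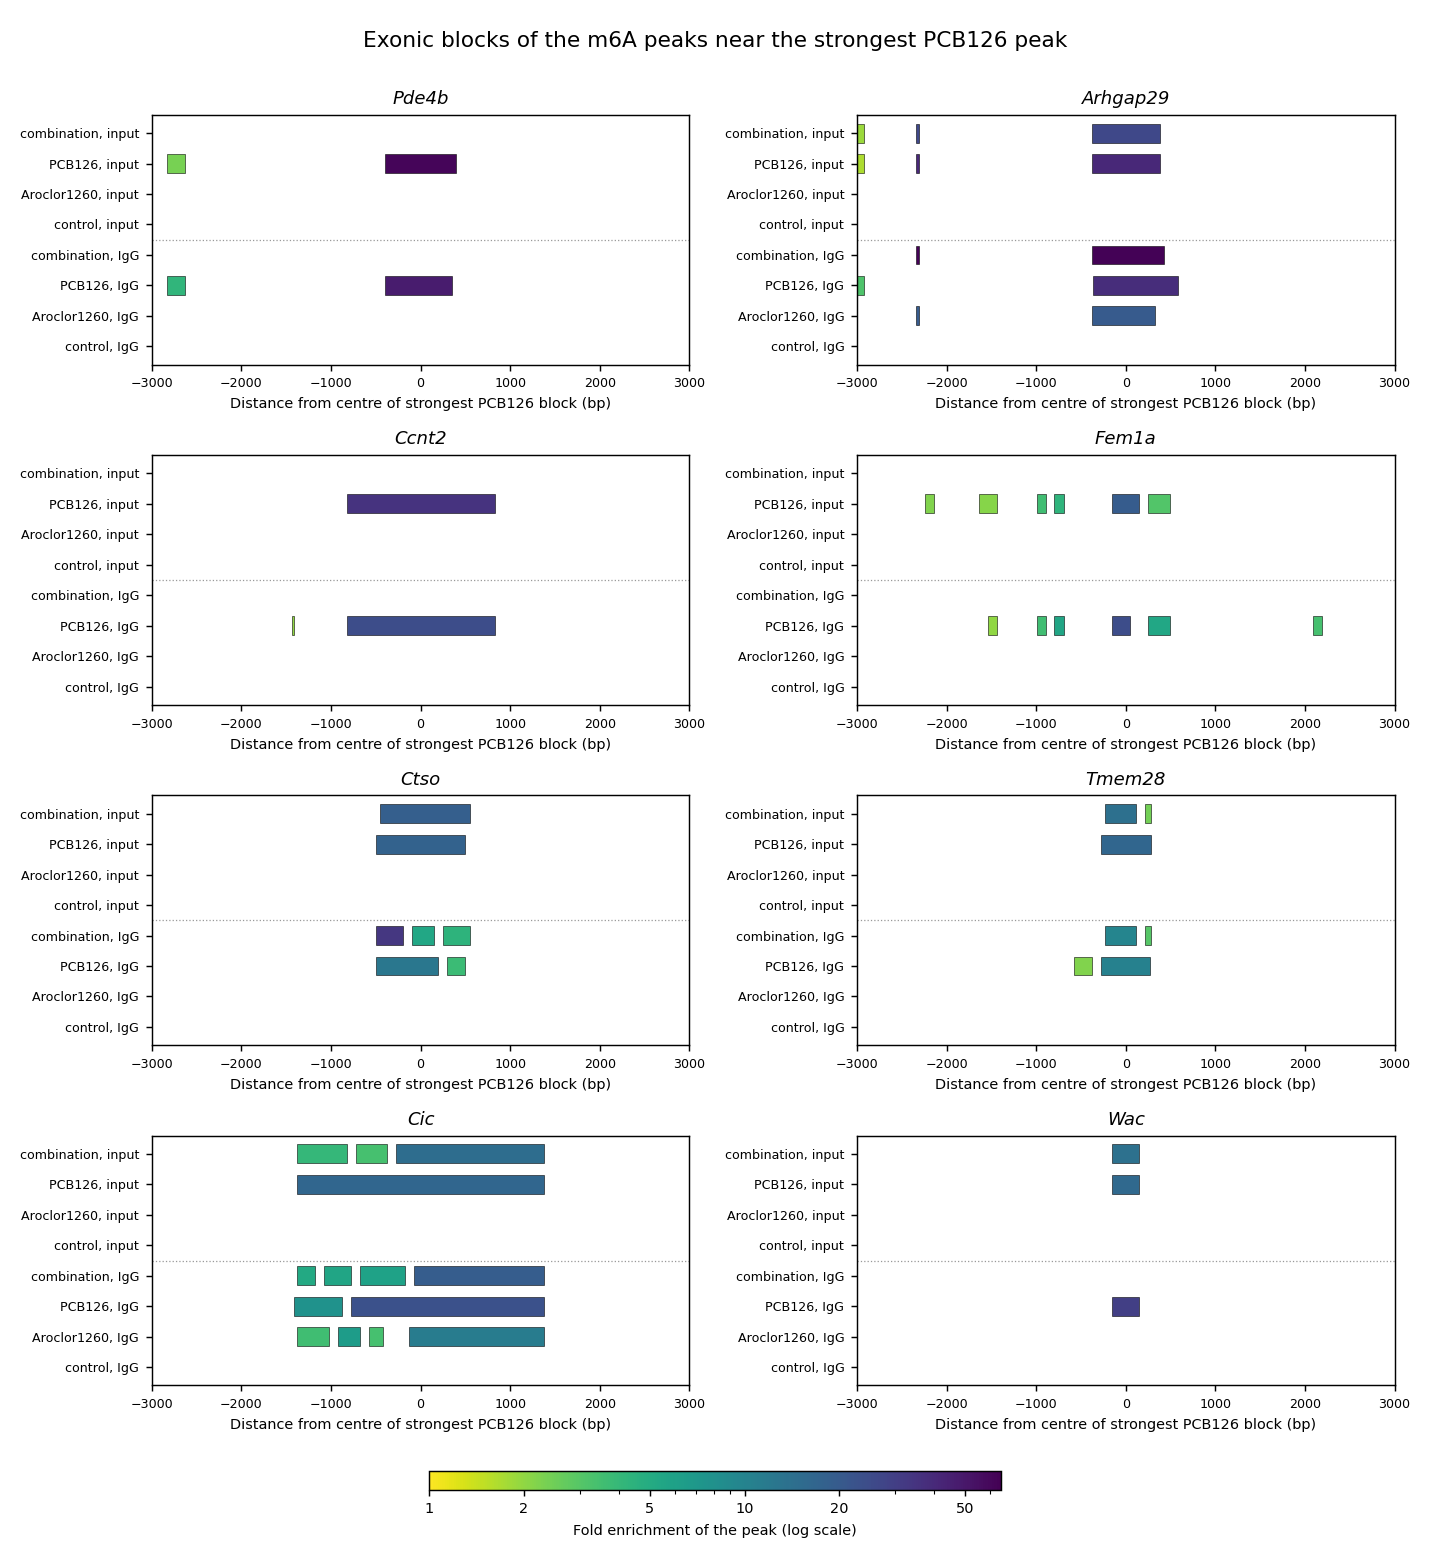
Exonic blocks of the peaks at each gene, by distance in bp from the centre of the longest block of its strongest PCB126 peak, within 3000 bp; rows are the 8 lists (input above the dotted line, IgG below), and colour gives the fold enrichment of the peak on a log scale. The Wac blocks have the same borders in the 3 lists that hold them, and the rows of Pde4b, Ccnt2 and Fem1a are empty outside PCB126.

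Aroclor1260 peaks at the members were confined to Arhgap29 and Cic, and to the IgG-referenced list, with 9 peaks in all. Of the 214 gained loci, 25.2% had an Aroclor1260 peak against IgG, set beside 2 of 8 genes, and 4.21% had one against input, set beside 0 of 8. Loci with the same 5 lists as Arhgap29 and Cic numbered 32. They were led by Egfr, the epidermal growth factor receptor, with highest folds over input of 18.4 in the combination and 23.9 after PCB126. Rnf43, which removes Wnt receptors from the cell surface, had 5.67 in the combination and 8.37 after PCB126. Ppp1r9b, Lrrc32 and Fam32a followed, with PCB126 folds from 8 down to 6.73.

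Ctso and Tmem28 shared their set of lists, the combination and PCB126 with both references, with 54 other loci. C1galt1, a galactosyltransferase of O-linked glycans, had 8.57 in the combination and 11.2 after PCB126 over input. The zinc finger genes Zfp1 and Zfp148 had 6.25 and 7.81 in the combination, and each had 10.3 after PCB126. Pakap differed in having the higher fold in the combination, 13.2, with 9.78 after PCB126. Fzd4, a Wnt receptor gene, had 4.33 in the combination and 7.45 after PCB126.

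Fold enrichments in the combination and after PCB126 were then set side by side for the genes with a peak in both. Against input, log2 ratios of combination over PCB126 were -0.64 for Arhgap29, -0.23 for Tmem28, -0.18 for Wac, -0.17 for Cic and 0.08 for Ctso. The median over the 109 gained loci with a combination peak was -0.08, with quartiles of -0.39 and 0.20, so 4 of the 5 genes lay between the quartiles. Arhgap29 lay below the lower one, at percentile 10.1. Against IgG the ratios were 0.72 for Arhgap29, 1.43 for Ctso, -0.11 for Tmem28 and -0.25 for Cic, and the median over 140 loci was -0.11, with quartiles of -0.48 and 0.24. There Arhgap29, at percentile 88.6, and Ctso lay above the upper quartile, and Tmem28 and Cic between the quartiles. Both comparisons are between lists called separately, and the size of a fold is not tested between them.

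**Figure D3:**
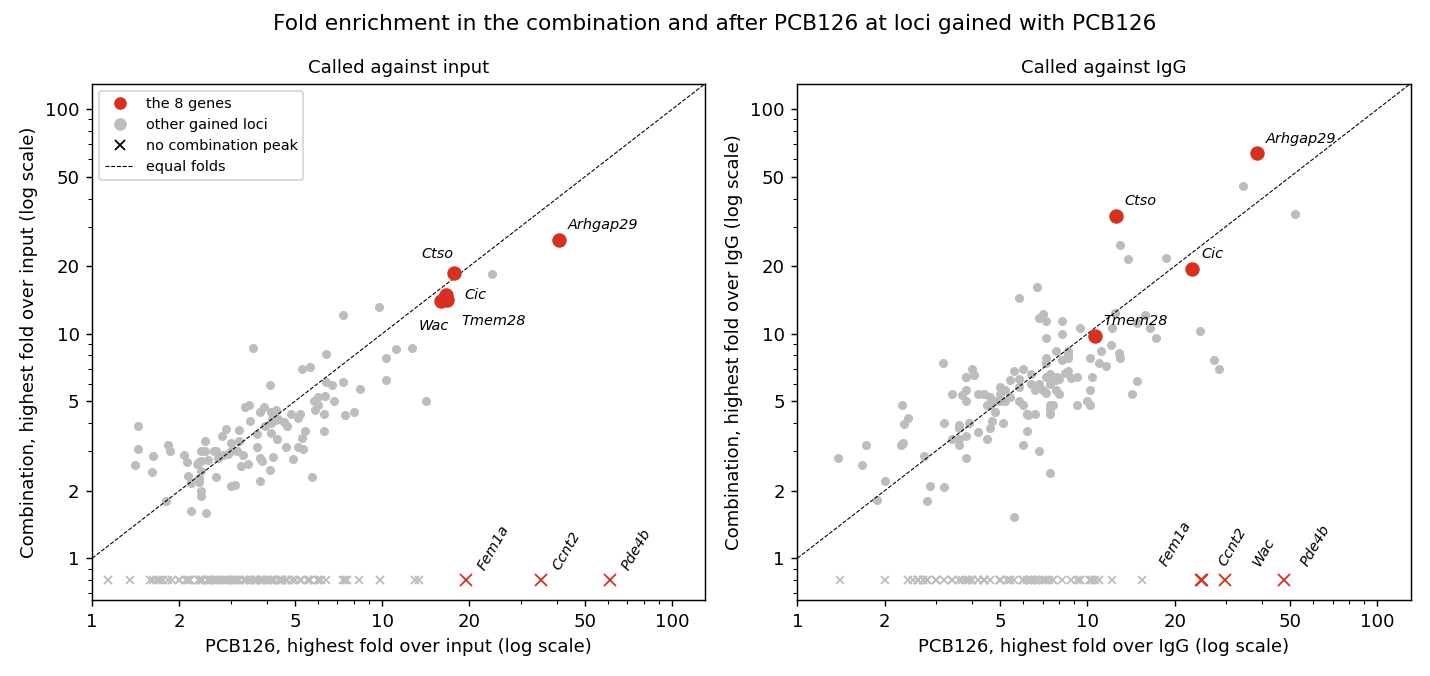
Highest fold enrichment in the combination (vertical log axis) and after PCB126 (horizontal log axis) at the 214 loci gained with PCB126, against input (left) and IgG (right); red points are the 8 genes, grey points the other loci, crosses at the bottom loci without a combination peak, and the dashed line marks equal folds. Pde4b, Ccnt2 and Fem1a sit among the crosses in both panels and Wac in the right one, while Arhgap29 lies below the line against input and above it against IgG.

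By single peaks, 9 of the 23 PCB126 peaks of the 8 genes overlapped a combination peak against input, or 39.1% (22.2 to 59.2%). The share was 39.0% (35.3 to 42.9%) of the 620 peaks at the other gained loci and 63.0% of all 2155 other PCB126 peaks. Against IgG, 11 of 30 were found, or 36.7% (21.9 to 54.5%), with 52.4% (48.8 to 55.9%) at the other gained loci. Peaks of a gene share their transcript, so these intervals cover counting error only. The main PCB126 peak was itself found in the combination at each of the 5 genes kept against input; the PCB126 peaks missing there were minor ones at Arhgap29, Cic and Wac, with folds from 1.59 to 2.12, and all peaks of Pde4b, Ccnt2 and Fem1a.

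The strongest PCB126 peaks were wide, a feature the choice did not use directly. Their median exonic width was 896.5 bp, from 299 bp at Fem1a to 2749 bp at Cic, where the strongest peaks of the 168 other gained plus-strand loci with a RefSeq span had a median of 340 bp. Over the 176 loci, width and fold were correlated (Spearman 0.58, Pearson 0.56 on log2 values), so the width is not independent of the fold that chose the genes. At Pde4b, Arhgap29, Ccnt2 and Ctso the middle of the longest block lay in the last 10% of the gene span, at relative positions from 0.918 to 0.996. At Tmem28, Cic and Fem1a it lay in the first 50%, at 0.0518, 0.173 and 0.394, and at Wac at 0.695. Among the 168 other loci 38.7% lay in the last 10% and 20.2% in the first 50%. The annotation used here has gene spans and no exons, so coding and untranslated parts were not assigned.

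The choice of reference altered the order within the list. The highest folds over input and over IgG after PCB126 were 16.6 and 23.0 at Cic, 19.5 and 24.6 at Fem1a, and 15.9 and 29.8 at Wac, which were higher against IgG. They were lower against IgG at the other 5 genes, where Tmem28 had 16.7 over input and 10.6 over IgG. Over all 214 gained loci the median was higher against IgG, 6.20, than against input, 3.68. Pde4b was the first of the gained loci against input and the second against IgG, whereas Tmem28 was at place 33 against IgG. Just outside the range of the members, Znhit2 had a PCB126 fold of 14.2 over input, below the 15.9 of Wac.

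Relatives and partners of the 8 proteins were counted from fixed lists, given in the order combination, PCB126, Aroclor1260 and control. Cyclic AMP phosphodiesterases and signalling genes had 1, 0, 0 and 0 of 24 against input, the member being Pde3b with 3 combination peaks up to 3.84. Beyond Fem1a itself, no listed receptor or subunit of CUL2 ligases (13 genes) had a peak in any of the 8 peak lists. Nor did any listed sodium leak channel gene (4 genes).

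P-TEFb and elongation genes had 1, 2, 1 and 1 of 16 with a peak against input. Hexim1, which holds P-TEFb inactive, had highest folds of 22.7, 17.1, 9.13 and 7.93, so unlike Ccnt2 it carried peaks in every group. Aff1, which scaffolds the super elongation complex, had 7 PCB126 peaks of at most 4.00 and no peak in the other 3 lists against input. Against IgG it had 5 combination peaks of at most 6.80 and 8 PCB126 peaks of at most 8.60. The whole list had 2, 3, 2 and 1 of 16 against IgG. There Cdk12 had 6 PCB126 peaks of at most 10.4 and Ell2 had 2 Aroclor1260 peaks of at most 3.75, each in no other list. Cathepsins and their inhibitors had 1, 1, 0 and 0 of 14, the member being the protease gene Ctsb with 3.85 in the combination and 3.66 after PCB126. Against IgG Ctsb had peaks in all 4 groups.

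Dusp6, a phosphatase gene that Capicua represses, was the only one of 12 Capicua partners and targets with a peak. Its highest folds were 7.67, 6.71, 4.55 and 3.71 in the same order against input, and it had peaks in all 8 lists. Partners of WAC had none of 10 against input. Against IgG, Paf1, a subunit of the polymerase-associated PAF complex, had 2.93 in the combination, 4.50 after PCB126 and 4.20 in the control, and Leo1, of the same complex, had 4.20 in the combination only. Since peaks on the minus strand are rare in these lists, and only 11 of the 18 cyclic AMP genes and 4 of the 10 CUL2 ligase genes with a known strand are on the plus strand, a gene without a peak here is not thereby shown to lack the mark.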

How the data were processed

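Livers of 4 groups were profiled by MeRIP, and 8 peak lists titled as MeTPeak output were used, 1 per group and reference. The submitters' processing notes name BWA 0.7.17 and the build mm10, as well as Trimmomatic, FastQC 0.10.1 and bcl2fastq 2.20.0.422. For the caller's version, its settings and its annotation no source used here gives a value. Per the file headers, each deposited peak has a fold enrichment (a linear ratio), a p-value and the log10 of a false discovery rate, whose largest value was 0.0490. Each list covers a whole group, so no replicate error or test exists, and depth is unknown.

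Lists were read with Python 3.11.15 and pandas 2.3.3. Spans are 1-based mm10. Each of 1512 Ensembl identifiers took the RefSeq symbol (GRCm38.p6) of the gene holding at least 80% of its exonic peak bases, which named 1394. Member peaks were those of the gene's identifier or inside its span, and 0 peaks of another identifier fell there. Same-strand peaks with 1 bp or more of span in common were counted as shared. Sites joined peaks whose exonic blocks overlapped. Wilson 95% intervals cover counting error only. Overlap and naming were tested on simulated data. The members and gene lists were chosen with earlier results of these data known. Named loci other than members were the gained locus above the lowest member, the 2 next below it, and the 5 highest with the same lists as Pde4b, Arhgap29 or Ctso; a locus and a gene list among these choices are not reported here. Alternatives were the IgG reference, stricter thresholds, equal list lengths, identifier alone and other overlap rules.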

Additional observations from a re-analysis of the deposited data

How the results depend on the processing

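No paired analysis was possible because each list is 1 call for a whole group, with no value per replicate; for the same reason no replicate could be left out. Of 36 alternative values, 26 were close to the value reported, 9 moved and 1 turned its direction. With IgG in place of input, 2 genes had an Aroclor1260 peak (0 against input), the share of gained loci with a combination peak was 51.0% (64.5% against input), and the log2 ratio of combination over PCB126 was 0.72 for Arhgap29, the opposite direction to -0.64 against input, 1.43 for Ctso, -0.11 for Tmem28 and -0.25 for Cic. Wac has no such ratio against IgG, since the combination had no peak there. With 506 peaks of smallest p-value in each list, 0 of the 8 genes had a combination peak, 0% of their 6 PCB126 peaks, all at Fem1a, were found in the combination, and the share of gained loci was 43.6%. That alternative leaves out 7 of the genes from the PCB126 list too. Requiring both references gave 44.9%. A false discovery rate of at most 0.001 left 4 genes with a combination peak against input, without Tmem28 (5 as reported). The overlap of exonic blocks, chosen after seeing the data, gave 39.1%, as did spans.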
